A study of Mus musculus with 20 samples.

Results

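The respiratory chain genes were read in RNA sequencing of whole atria from Tbx5 G125R/+ mice (mutants) and controls. Members were chosen by name: symbols of the right atrium table beginning with Ndufa, Ndufb, Ndufc, Ndufs, Ndufv, Uqcr, Uqcc, Cox4 to Cox8, Atp5, mt-Nd, mt-Co, mt-Cytb or mt-Atp, without names holding -ps or Gm, and the left atrium table was joined by Ensembl gene ID. The rule gave 101 genes out of 33446 with values in the right table and 41128 in the left table, of which 88 are nuclear genes and 13 are the protein genes of the mitochondrial genome. By complex, the nuclear members comprise 36 genes of complex I, 8 of complex III, 18 of complex IV and 15 of complex V, with 5 assembly factors and 6 genes that carry such a name without being an established subunit.

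The samples were 5 mutant and 5 control right atria and 5 mutant and 5 control left atria, all from female mice of 8 to 12 weeks. Mutants were heterozygous for a missense change of glycine to arginine in the T-box transcription factor 5 (Tbx5), introduced into the mouse gene by CRISPR/Cas9, and so carried by all cells, after a variant found in a family with Holt-Oram syndrome and atrial fibrillation. Controls carried the unaltered gene, and the right atrial samples of both genotypes included sinoatrial node tissue according to the study. The study describes the right atria of each genotype as coming from separate animals. The labels tie no library to an animal, so whether left and right atria share animals is not known, and p-values for the left atrium measure the spread between libraries, which may be technical. In whole tissue, fewer cells of a type and less RNA per cell cannot be told apart.

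The respiratory chain passes electrons from NADH and succinate through complexes I to IV to oxygen, and complex V (ATP synthase) uses the resulting proton gradient to make ATP. Most subunits are encoded in the nucleus and imported, while a small set in complexes I, III, IV and V is encoded by mitochondrial DNA, so assembly needs products of both genomes. Atrial cardiomyocytes are rich in mitochondria, and several complex IV subunits exist as a heart and muscle isoform beside a ubiquitous one.

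Library depth, recovered from the deposited values, was 17.5 to 26.8 M reads in the 10 right atria and 19.1 to 24.8 M reads in the 10 left atria. Mitochondrial rRNA took 7.37% to 15.7% of the reads in mutant and 7.28% to 14.6% in control right atria, and 19.5% to 42.2% in mutant and 24.1% to 46.7% in control left atria. Genes with at least 1 read numbered 20149 ± 290 in mutant and 19437 ± 455 in control right atria (SD, n = 5 each; two-sided exact permutation p = 0.0317, and 0.254 adjusted over 8 library properties tested). All 8 listed cardiomyocyte markers passed the filter in both atria and none was called. Of the marker lists for other cell types, the ventricular markers Myl2 and Myl3 and the smooth muscle markers Cnn1 and Acta2 were called lower, and the endothelial marker Kdr higher, in mutant right atria, and Myl3 was called lower in mutant left atria. The summed level of the 4 smooth muscle markers was 1961 to 2772 normalized counts in mutant and 2708 to 7323 in control right atria. The 5 endothelial markers, of which only Kdr was called, summed to 16836 to 22058 in mutant and 15745 to 25190 in control right atria. The part of these markers in the results on respiratory chain genes was not tested. Tbx5 itself, in which the change is a point mutation, read 5344 to 6778 normalized counts in mutant and 5087 to 7375 in control right atria, with a log2 fold change of 0.02 ± 0.11 (SE, n = 5 each).

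A normalized count is a read count divided by the library's size factor, which was set within each atrium's table. Differences were tested with limma on log2(normalized count + 1) over all genes with a mean of at least 10, and genes with an adjusted p under 0.05 (Benjamini-Hochberg over the whole table) were counted as called. Fold changes are on that log2 scale, mutant over control. In the right atrium 91 members were tested and in the left atrium 90.

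No respiratory chain gene passed the test in the right atrium, where most nuclear members had fold changes slightly below 0. The call rule was met by 6.23% of the 14288 genes tested, 890 in number (3.09% higher and 3.14% lower in mutants), and by 0 of the 91 members. On recovered reads edgeR called 0 members beside 6.09% of all genes. At an unadjusted p under 0.05, 13 members stood against 21.3% of all genes. Of the 84 nuclear members tested, 74 had a negative and 10 a positive log2 fold change, with a median of -0.12, while 52.6% of all genes tested were negative with a median of -0.01. The 95% interval of the fold change lay within 0.5 of 0 on the log2 scale for 76 of the 84 nuclear members.

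Medians were negative in each of the 4 complexes. Complex I had 32 negative and 3 positive nuclear members with a median of -0.12, complex III 8 negative and 0 positive with a median of -0.15, complex IV 13 negative and 3 positive with a median of -0.12, and complex V 14 negative and 1 positive with a median of -0.08. The 5 assembly factors were negative, with a median of -0.15. The 5 tested genes without an established subunit role had a median of 0.03.

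**Figure D1:**
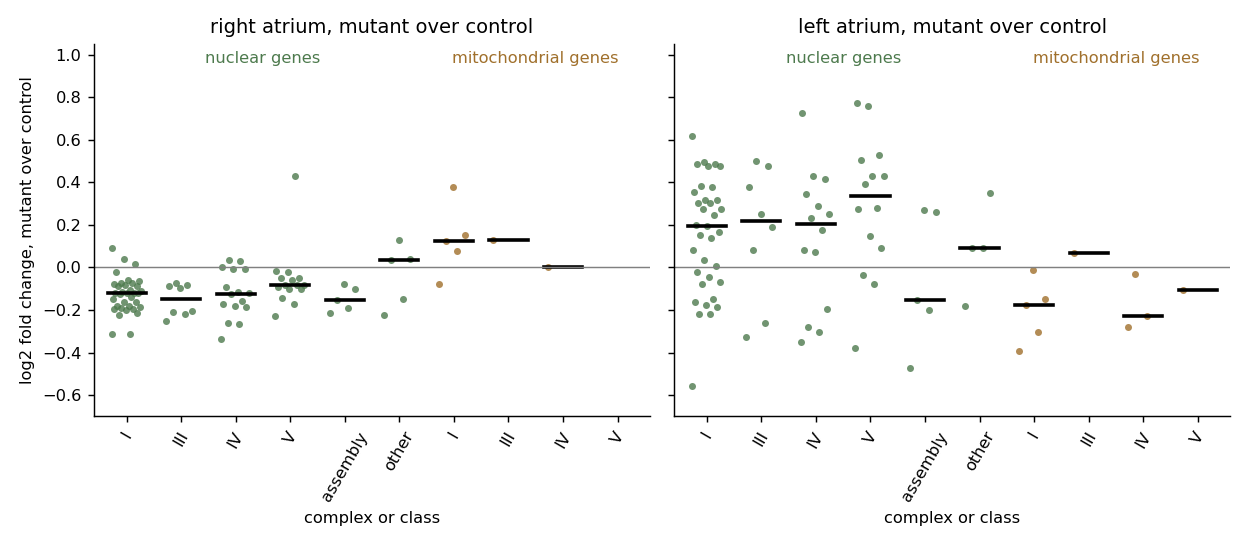
Log2 fold change, mutant over control, of each tested respiratory chain gene (points) in the right and left atrium, by complex and genome of origin; bars are medians. Nuclear genes of the right atrium cluster just below 0 with a median of -0.12, and those of the left atrium spread more widely around a median of 0.20.

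The per-library levels show which samples carried this shift. The median deviation of the nuclear members from the right atrial mean was -0.04, 0.01, -0.18, -0.04 and -0.05 in mutants 1 to 5, against -0.11, -0.05, -0.09, 0.24 and 0.31 in controls 1 to 5. Controls 4 and 5 stood above all mutants, while controls 1 to 3 lay within the range of the mutants. Nuclear members took 2.44% to 2.86% of the nuclear reads in mutants, against 2.57% to 2.61% in controls 1 to 3 and 3.10% and 3.37% in controls 4 and 5. Without control 5 the median log2 fold change was -0.05, with 65 nuclear members negative and 19 positive, beside 51.4% of all genes negative. Without control 4 it was -0.06, with 71 negative and 13 positive, beside 51.7% of all genes negative. Without mutant 3, the lowest mutant, the median was -0.08. Marker genes moved with these libraries too. The 4 atrial markers summed to 300915 to 388093 normalized counts in mutants, against 407093 and 425714 in controls 4 and 5 and 303722 to 335432 in controls 1 to 3. The 7 fibroblast markers summed to 49072 to 85884 in mutants, against 68734 and 69876 in controls 4 and 5 and 85924 to 104281 in controls 1 to 3. The 5 endothelial markers summed to 16836 to 22058 in mutants, against 16164 and 15745 in controls 4 and 5 and 22080 to 25190 in controls 1 to 3. Controls 4 and 5 were thus highest in atrial and lowest in endothelial markers among the 10 right atria. The 8 cardiomyocyte markers, however, summed to 2700120 in control 4, the highest control, and to 1966850 in control 5, the lowest. Mutants ran from 1835460 to 3159350 in that sum. Control 5 was also the highest of the right atria in mesothelial and red blood cell markers, at 14368 and 11105. The part of these markers in the shift was not tested. The nuclear members are not independent of each other, so the count of negative genes is a description and carries no test.

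**Figure D2:**
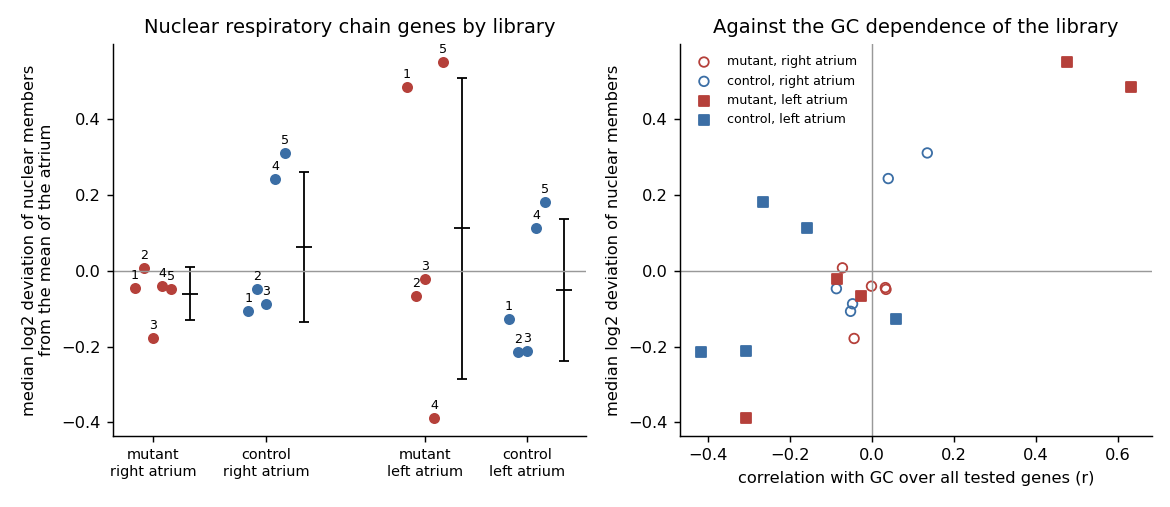
Left, median log2 deviation of the nuclear respiratory chain genes from the mean of their atrium in each library (numbered points), with the mean and SD of each group; right, the same values against the correlation of each library's deviation with GC content over all tested genes. Right controls 4 and 5 (0.24 and 0.31) and left mutants 1 and 5 (0.48 and 0.55) stand above the other libraries of their groups.

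In complex I, Ndufs1, which encodes a core subunit of the electron-transferring peripheral arm, was among the nuclear members with the most normalized counts, not divided by length. Ndufs1 (chromosome 1, 63143596 to 63176833, GRCm38) read 11628, 13812, 12760, 13678 and 12344 normalized counts in mutants, against 13050, 13713, 13285, 15194 and 14354 in controls. The groups overlapped, and the log2 fold change was -0.12 ± 0.07 (SE, n = 5 each; adjusted p = 0.382 by limma).

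Ndufs7 (chromosome 10, 80249121 to 80256794) encodes an iron-sulfur core subunit next to the quinone site. It read 3228, 3204, 3001, 3391 and 3485 normalized counts in mutant right atria, against 3558, 3653, 3618, 4510 and 5144 in controls. Every mutant lay below every control, with controls 4 and 5 highest, and the log2 fold change was -0.31 ± 0.10 (SE, 95% interval -0.53 to -0.10, n = 5 each; adjusted p = 0.0884 by limma). Over 25 alternatives the adjusted p of Ndufs7 ran from 0.0340 by DESeq2 on recovered reads to 0.795 with all 4 groups in a single limma model, and it was called in 4 of them. The single model gives each gene a variance shared by both atria. Mutants lay below all controls in 2 tested members, Ndufs7 and Atp5f1, beside 3.83% of all genes tested, and the groups did not overlap in either direction in 3 members beside 7.36% of all genes.

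In complex III, the core proteins Uqcrc1 and Uqcrc2 and the Rieske iron-sulfur protein Uqcrfs1 had right atrial log2 fold changes of -0.22 ± 0.10, -0.21 ± 0.08 and -0.20 ± 0.08 (SE, n = 5 each). Uqcrc2 read 11392, 12664, 11640, 12493 and 11870 normalized counts in mutants, against 12174, 13222, 13792, 15109 and 15320 in controls. The groups overlapped only through control 1, which lay below mutants 2 and 4. Limma gave Uqcrc2 an adjusted p of 0.137. Of 25 alternatives 1 called it, DESeq2 on recovered reads at an adjusted p of 0.0446, and the highest adjusted p was 0.820 in the single limma model.

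In complex IV, Cox4i1, a regulatory subunit, read 18686, 19200, 16453, 18293 and 18488 normalized counts in mutants, against 16365, 17691, 17851, 22114 and 24158 in controls. The mutants lay between the 3 lower and the 2 higher controls or among the lower ones, and the log2 fold change was -0.09 ± 0.11 (SE, n = 5 each; adjusted p = 0.654 by limma). Cox6a1 (chromosome 5, 115345642 to 115348981), the ubiquitous isoform of subunit VIa, read 966, 864, 886, 965 and 1004 normalized counts in mutants, against 981, 1075, 1077, 1186 and 1336 in controls. Only control 1 overlapped the mutants, the log2 fold change was -0.27 ± 0.08 (SE), and the adjusted p was 0.0821 by limma.

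In complex V, Atp5b and Atp5a1, the beta and alpha subunits of the catalytic head, were the most abundant nuclear members. Per kilobase of exon, Atp5a1 had 27346 and Atp5b 22075 normalized counts over the 10 right atria. Atp5b averaged 90593 ± 3638 in mutants and 96470 ± 12786 in controls (SD, n = 5 each), with a log2 fold change of -0.08 ± 0.12 (SE). Atp5f1, a subunit of the peripheral stalk, read 7139, 7541, 6583, 7332 and 7353 normalized counts in mutants, against 7592, 7778, 7860, 9401 and 9682 in controls. The groups did not overlap, and the log2 fold change of -0.23 ± 0.08 (SE, n = 5 each) had an adjusted p of 0.125 by limma. Its coding sequence has a near-identical copy, Gm12231 (98.8% identity over 90.1%), so its counts are uncertain to that extent.

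The lowest adjusted p of any member in the right atrium belonged to Atp5sl (chromosome 7, 25619414 to 25625551), whose product is named for likeness to an ATP synthase factor. It read 909, 1011, 862, 936 and 923 normalized counts in mutants, against 1054, 1000, 1098, 1162 and 1114 in controls. Mutant 2 overlapped control 2, and the log2 fold change was -0.23 ± 0.06 (SE, n = 5 each; adjusted p = 0.0517 by limma). The assembly factor with the most normalized counts, Uqcc, which is needed to build complex III, averaged 2190 ± 176 in mutants and 2353 ± 205 in controls (SD, n = 5 each). The complex I assembly factor Ndufaf4 averaged 1274 ± 85.1 in mutants and 1489 ± 214 in controls (SD, n = 5 each), and its log2 fold change was -0.22 ± 0.09 (SE).

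DESeq2 on recovered reads called 5 of the 91 members, beside 9.18% of all genes. Of these, Ndufs7, Uqcrc2, Cox6a1 and Atp5sl were lower and mt-Nd2 was higher in mutant right atria.

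The mRNAs of the mitochondrial genome gave mostly positive values in the right atrium, and none was called. There 7 of the 13 were tested, of which 5 had a positive and 2 a negative log2 fold change, with a median of 0.12. The other mRNAs were listed at 0 there, so sums over the 13 rest on the 7 tested. The 13 mRNAs together summed to 488075 to 646516 normalized counts in mutants and 491660 to 621516 in controls. Relative to the summed nuclear members, this was 1.25, 1.07, 0.98, 1.04 and 1.09 in mutants 1 to 5, against 1.03, 0.99, 0.94, 0.95 and 0.93 in controls 1 to 5. The ratio was lowest in controls 5, 3 and 4, and mutant 3 overlapped controls 1 and 2.

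The subunit I gene of cytochrome c oxidase, mt-Co1, had the most normalized counts of any member. It made up 55.4% to 65.4% of the counted mitochondrial mRNA in mutant and 60.3% to 64.0% in control right atria. These shares are of the 7 mRNAs above 0, and mRNAs listed at 0 cannot be ranked against mt-Co1. The mt-Co1 gene read 422527, 341792, 290134, 349831 and 317947 normalized counts in mutants, against 309013, 315069, 311473, 386956 and 397576 in controls. The groups overlapped, with mutant 1 above and mutant 3 below all controls and a log2 fold change of 0.00 ± 0.20 (SE, n = 5 each). The cytochrome b gene mt-Cytb and the complex I gene mt-Nd1 had log2 fold changes of 0.13 ± 0.13 and 0.15 ± 0.12 (SE).

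Of the mitochondrial mRNAs, mt-Nd2, a membrane subunit of complex I (mitochondrial genome, 3914 to 4951), had the lowest adjusted p. It read 20036, 24817, 20455, 21127 and 30765 normalized counts in mutant right atria, against 17583, 17594, 16347, 19857 and 17809 in controls. Every mutant lay above every control, though mutant 1 exceeded control 4 by a small margin, and such a separation occurred in 3.53% of all genes tested. The log2 fold change was 0.38 ± 0.12 (SE, 95% interval 0.13 to 0.63, n = 5 each), with an adjusted p of 0.0781 by limma and 0.0570 by edgeR. Over 25 alternatives the adjusted p of mt-Nd2 ran from 0.0101 by DESeq2 to 0.782 with all 4 groups in a single limma model. It was called in 3 of them, by DESeq2, with reads of nuclear genes as the denominator and after quantile normalization, and not in the other 22. In the left atrium mt-Nd2 read 21072, 47489, 52620, 55175 and 31569 in mutants, against 35912, 38647, 35163, 80453 and 43190 in controls, with a log2 fold change of -0.18 ± 0.31 (SE). Mutants 1 and 5 were the lowest there and control 4 the highest. The complex I genes mt-Nd4, mt-Nd5 and mt-Nd6 had right atrial log2 fold changes of 0.12 ± 0.12, 0.08 ± 0.13 and -0.08 ± 0.14 (SE).

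**Figure D3:**
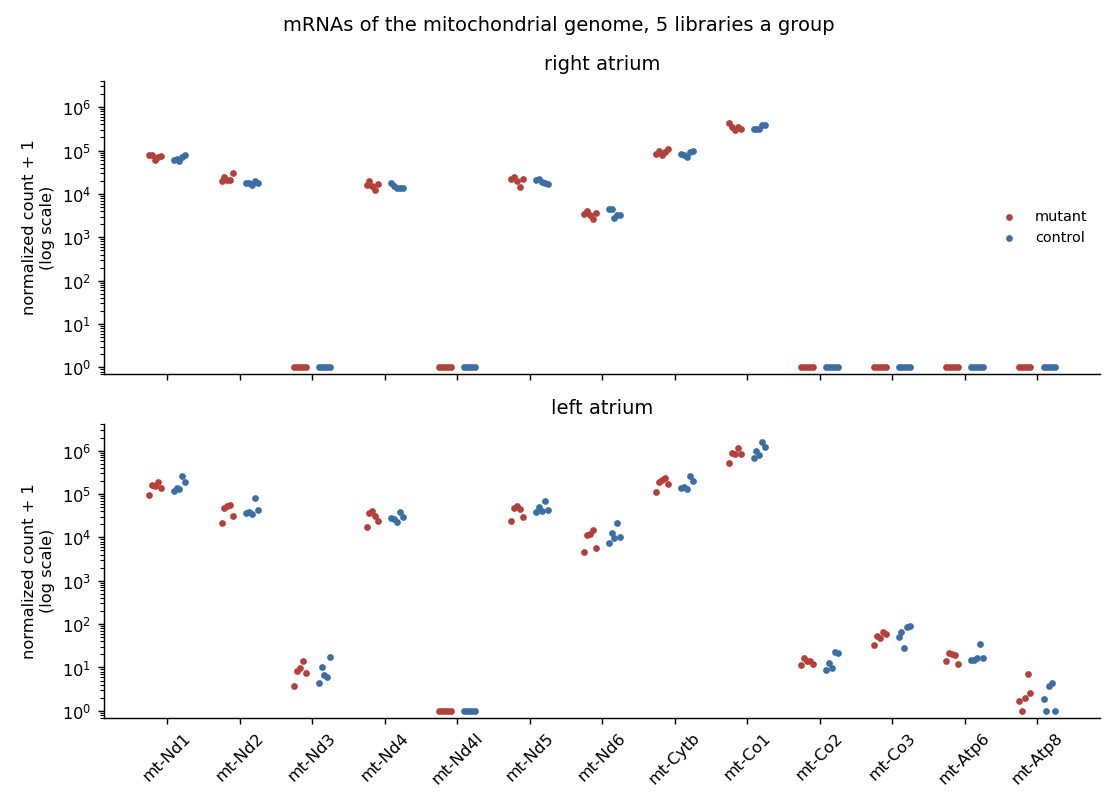
Normalized count plus 1, on a log axis, of each of the 13 mitochondrial mRNAs in 5 mutant (red) and 5 control (blue) libraries of each atrium. In the right atrium mt-Nd3, mt-Nd4l, mt-Co2, mt-Co3, mt-Atp6 and mt-Atp8 are listed at 0 in all 10 libraries, and mt-Nd2 is the gene whose groups do not overlap.

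The mitochondrial mRNAs mt-Nd3, mt-Nd4l, mt-Co2, mt-Co3, mt-Atp6 and mt-Atp8 were listed at 0 in all 10 right atria. In the left atria mt-Nd4l was also at 0 throughout, and the highest value of the other 5 was 90.2 normalized counts, for mt-Co3, while mt-Co1 read at least 506534. These genes encode core subunits that every respiring cell uses, so a value of 0 in the table is no measure of their transcription, and no right atrial difference between genotypes can be read from them. The left atrial fold changes of mt-Co2, mt-Co3 and mt-Atp6 rest on these low values. The coding sequences of 5 of the 6 genes matched an annotated pseudogene of the nuclear genome at 98% identity or more over at least 90% of their length, namely Gm28438, Gm10222, Gm28661, Gm28437 and Gm10925, which lie together on chromosome 1 between 24612407 and 24615565 (GRCm38). None of the 8 other mitochondrial mRNAs had such a match, although mt-Nd4 matched Gm28439 over 63.6% and mt-Co1 matched Gm29216 over 31.1% of their lengths.

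The extent of this likeness is shown by a stretch of the complex I gene mt-Nd3 and of its nuclear copy, from the start of the coding sequence, with the single base that differs over the 345 aligned bases in capitals (T3C, counted from 1 at the first coding base of the mitochondrial gene; sequences from GENCODE M21).
mt-Nd3: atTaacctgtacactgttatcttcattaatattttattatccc
Gm28438: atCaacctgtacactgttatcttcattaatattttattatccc
The first 120 bases of mt-Nd4l, another membrane subunit of complex I, were identical in mt-Nd4l and Gm10222, as were all 294 aligned bases, so the run below belongs to both.
mt-Nd4l: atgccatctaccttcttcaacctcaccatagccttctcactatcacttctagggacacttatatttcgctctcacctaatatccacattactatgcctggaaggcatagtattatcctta
How reads that match several places were counted is not given in the sources used here, and whether these copies led to the zeros was not tested. The copies did not all stand alike to their genes in the left table. It listed Gm28438 at 113 to 624 normalized counts, above mt-Nd3 itself at 2.83 to 16.7, and Gm28661 at 28.3 to 72.5, above mt-Co2 at 7.74 to 21.9. Gm28437 at 33.2 to 71.6 overlapped mt-Co3 at 27.4 to 90.2, Gm10925 at 10.3 to 30.3 overlapped mt-Atp6 at 11.1 to 33.7, and both Gm10222 and mt-Nd4l were at 0 throughout.

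A similar match was found for nuclear members. Of the 88, 14 had a copy at 98% identity or more over at least 90% of the coding sequence, and 5 of these 14 stayed under 100 normalized counts in every right atrium, namely Ndufs5, Cox7c, Atp5g2, Atp5l and Atp5l2. Of the 74 without such a copy, 4 did so, Cox4i2, Cox6b2, Cox7b2 and Cox8c, which encode isoforms of restricted tissue expression. Ndufb4, whose coding sequence is matched in full by Ndufb4c on chromosome 15, still read 571 to 1021, so a copy did not always go with a low value. The complex I subunit gene Ndufs5 (chromosome 4) is shown beside its copy BC002163 (chromosome 16) over bases 41 to 145 of the coding sequence, with the differing bases in capitals (T81C and A105G, counted from 1 at the first coding base of Ndufs5).
Ndufs5: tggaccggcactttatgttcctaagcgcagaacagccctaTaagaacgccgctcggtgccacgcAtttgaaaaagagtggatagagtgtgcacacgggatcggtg
BC002163: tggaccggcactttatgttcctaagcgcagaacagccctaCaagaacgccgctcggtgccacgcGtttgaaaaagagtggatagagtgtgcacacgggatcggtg
Ndufs5 read 2.77 to 10.5 normalized counts over the right atria, and BC002163 read 260 to 394. BC002163 had 268, 313, 273, 344 and 348 in mutant right atria, against 331, 311, 260, 378 and 394 in controls, so the groups overlapped.

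The members that failed the filter of a mean of 10 in the right atrium were those 6 mitochondrial mRNAs, Ndufs5, Cox7b2, Cox8c and Atp5l2. In the left atrium they were mt-Nd3, mt-Nd4l, mt-Atp8, Ndufs5, Cox4i2, Cox6b2, Cox7b2, Cox8c, Atp5l, Atp5l2 and Ndufa4l2. Cox4i2, the oxygen-regulated isoform of subunit IV, read 6.36, 3.66, 4.98, 7.21 and 5.54 normalized counts in mutant left atria, against 1.72, 1.14, 2.84, 0 and 2.94 in controls. The groups did not overlap, at a level of a few reads a library and below the filter, and mutants lay above all controls in 2.02% of the genes tested there. In no tested member were the left groups apart, beside 3.47% of all genes, 1.46% with mutants below all controls.

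No member was called in the left atrium either, where most nuclear members had positive fold changes. The call rule was met by 1.2% of the 13192 genes tested (0.758% higher and 0.44% lower in mutants) and by 0 of the 90 members, and at an unadjusted p under 0.05 the counts were 5 members and 16.6% of all genes. On recovered reads edgeR and DESeq2 called 0 members, beside 1.29% and 3.27% of all genes. Of the 80 nuclear members, 56 were positive and 24 negative, with a median log2 fold change of 0.20, beside a median of -0.01 and 50.7% negative over all genes. Complexes I, III, IV and V had medians of 0.19, 0.22, 0.20 and 0.34, and the assembly factors -0.15. Standard errors were wide, with a median of 0.24 against 0.10 in the right atrium, and the 95% interval lay within 0.5 of 0 for 13 of the 80.

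The positive median rested on mutants 1 and 5. The median deviation of the nuclear members was 0.48, -0.07, -0.02, -0.39 and 0.55 in left mutants 1 to 5, against -0.13, -0.21, -0.21, 0.11 and 0.18 in controls 1 to 5. Mutant 4 was the lowest of the 10 libraries, and controls 4 and 5 the highest of their group. Over all tested genes, the deviation of mutants 1 and 5 from the left atrial mean rose with GC content (r = 0.63 and 0.48). The GC content of a gene is that of its longest annotated transcript. In the other 8 left atria r was between -0.42 and 0.06, and in the right atria between -0.09 and 0.14. Mutants 1 and 5 also had the lowest summed level of the 7 fibroblast markers, 25702 and 26830 normalized counts, against 36607 to 64736 in the other mutants and 42314 to 69738 in controls. Their 4 smooth muscle markers summed to 723 and 867, above the other mutants at 318 to 405 and within the 287 to 948 of controls. The part of these markers in the left atrial values was not tested. Without mutants 1 and 5, an alternative chosen after seeing the data, 21 nuclear members were positive and 59 negative, with a median of -0.09. The median was 0.09 when the GC trend of each library was removed, 0.11 without mutant 1, 0.08 without mutant 5 and 0.35 without mutant 4.

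Among the nuclear members themselves, the left atrial fold change went with GC content. Across the 80 genes, which share their libraries and are not replicates, Pearson's r was 0.54 and Spearman's rho 0.48. The 40 members of lower GC content had 19 positive and 21 negative values with a median of -0.03, and the 40 of higher GC content had 37 positive and 3 negative values with a median of 0.29. Without mutants 1 and 5 the r was 0.28 and rho 0.20. In the right atrium r was 0.06 and rho 0.17 over 84 members.

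GC content also went with the level of the members in one table relative to the other, though the 2 tables were normalized separately and atrium and table cannot be told apart. In controls, the log2 ratio of the left to the right mean ran from -4.70 to 1.62 over 80 nuclear members, with a rho of -0.72 against GC content, and over 12493 genes tested in both tables rho was -0.85. At the low end, Atp5d, the delta subunit of ATP synthase with 59.3% GC, averaged 276 normalized counts in left and 7199 in right controls, and Ndufa11, a complex I subunit with 58.0% GC, averaged 191 in left and 4929 in right controls. At the high end, Ndufaf4 with 39.5% GC averaged 4575 in left and 1489 in right controls. In mutants rho was -0.72 over the 80 members and -0.85 over all genes.

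**Figure D4:**
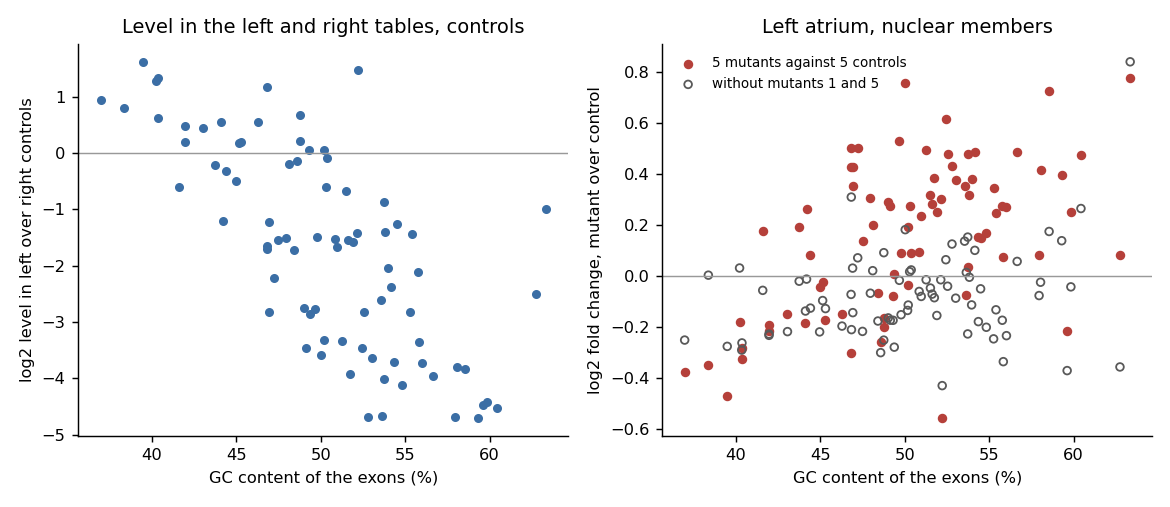
GC content (%) of the longest transcript, marked as exons on the axes, of the 80 nuclear respiratory chain genes tested in the left atrium. It is set against the log2 level in left over right controls (left panel) and the left atrial log2 fold change, mutant over control (right panel). Filled points are from all libraries and open points are without mutants 1 and 5. Level in the left table falls with GC content (rho = -0.72), and the median left atrial fold change is 0.20 with all libraries and -0.09 without mutants 1 and 5.

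Individual left atrial members followed mutants 1 and 5. Uqcrc1 read 2604, 1195, 1075, 995 and 2277 normalized counts in mutants, against 1108, 1012, 956, 1552 and 1230 in controls, with a log2 fold change of 0.38 ± 0.26 (SE, n = 5 each; adjusted p = 0.426 by limma). Cox4i1 read 2919, 1338, 1312, 1352 and 2800 in mutants, against 1396, 1207, 921, 2137 and 1391 in controls, and its log2 fold change was 0.41 ± 0.27 (SE, n = 5 each; adjusted p = 0.408 by limma). In both genes mutants 1 and 5 were the highest of the 10 libraries.

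The ATP synthase subunit gene Atp5b averaged 41873 ± 15009 in mutant and 33087 ± 6306 in control left atria (SD, n = 5 each), with mutants 1 and 5 at 54518 and 60128. Atp5a1 averaged 40936 ± 9112 in mutants and 36546 ± 6212 in controls (SD, n = 5 each). Their log2 fold changes were 0.28 ± 0.26 and 0.15 ± 0.21 (SE).

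The lowest adjusted p of a member in the left atrium was that of Ndufb4 (chromosome 16, 37647170 to 37654453), an accessory subunit of complex I, and it ran the other way. It read 1013, 1568, 1734, 1795 and 1829 normalized counts in mutants, against 1755, 2011, 1892, 3355 and 2798 in controls. Mutants 4 and 5 overlapped control 1, mutant 1 was the lowest, and the log2 fold change was -0.56 ± 0.21 (SE, 95% interval -1.01 to -0.11, n = 5 each; adjusted p = 0.231 by limma). Its coding sequence is matched in full by Ndufb4c, listed at 0 throughout, so its counts are uncertain to that extent. Over 26 alternatives the limma adjusted p of Ndufb4 ran from 0.0389 with same-numbered libraries fitted as blocks to 0.781 without mutants 1 and 5. Only the fit with blocks called it. In the right atrium the log2 fold change of Ndufb4 was -0.21 ± 0.11 (SE). Ndufaf4 read 2143, 3148, 3411, 4240 and 3038 in mutant left atria, against 2385, 5378, 4247, 6719 and 4147 in controls, with a log2 fold change of -0.47 ± 0.25 (SE). Mutant 1 and control 1 were the lowest of their groups. The adjusted p of Ndufaf4 by limma was 0.334, and 0.0445 with same-numbered libraries fitted as blocks, the only 1 of 26 alternatives that called it.

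Mitochondrial mRNAs of the left atrium had mostly negative fold changes with wide errors. Of the 10 tested, 9 were negative and 1 was positive, with a median of -0.16, and each interval included 0. Among the 10, mt-Co2, mt-Co3 and mt-Atp6 averaged only 13.4, 57.1 and 17.4 normalized counts, so the tallies in this paragraph rest partly on low values. The mt-Co1 gene read 506534, 872311, 849816, 1133120 and 851084 normalized counts in mutants, against 688962, 962481, 773459, 1562660 and 1195170 in controls. Mutant 1 was the lowest and control 4 the highest, and the log2 fold change was -0.28 ± 0.47 (SE, n = 5 each). Control 4 was also the library with the most mitochondrial reads, 53.9% of its total. The direction did not hold under other processing. With the GC trend of each library removed, 9 of the 10 were positive and 1 negative, with a median of 0.18, and without mutants 1 and 5, 8 were positive and 2 negative, with a median of 0.12.

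The difference between atria was tested as the left minus the right log2 fold change over all 20 libraries. It was called for 0.0638% of the 12537 genes tested in both tables, 8 in number (0.0239% higher and 0.0399% lower), and for 0 of 87 members, of which 4 had an unadjusted p under 0.05, beside 8.14% of all genes. Among the 80 nuclear members 66 were positive and 14 negative, with a median of 0.35 beside 50.1% negative over all genes, and the 7 mitochondrial mRNAs were negative with a median of -0.30. Without left mutants 1 and 5 the nuclear counts were 48 positive and 32 negative, with a median of 0.02, and the mitochondrial counts were 3 positive and 4 negative, with a median of -0.03.

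Subunit isoforms of cytochrome c oxidase were compared as ratios within each library, on which a library's scaling factor has almost no effect. The right atrial log2 ratio of Cox6a2, the heart and muscle isoform, to Cox6a1 was 3.12, 3.50, 3.37, 3.40 and 3.43 in mutants, against 3.14, 3.05, 2.93, 3.20 and 3.15 in controls. Mutants 2 to 5 lay above all controls and mutant 1 lay among them. The mean was 3.36 ± 0.15 in mutants and 3.10 ± 0.11 in controls (SD, n = 5 each).

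For Cox7a and Cox8 the mean right atrial ratio of the muscle to the ubiquitous form was lower in mutants. The log2 ratio of the heart and muscle isoform Cox7a1 to Cox7a2 was 0.31, 0.18, 0.19, 0.19 and 0.12 in mutant right atria, against 0.36, 0.39, 0.23, 0.48 and 0.44 in controls, and only mutant 1 and control 3 overlapped. For Cox8b against Cox8a it was 1.58, 1.60, 1.27, 1.29 and 1.29 in mutants, against 1.79, 1.69, 1.78, 1.72 and 1.49 in controls, with overlap only through control 5. In the left atrium Cox8b to Cox8a averaged 1.54 ± 0.29 in mutants and 2.20 ± 0.30 in controls (SD, n = 5 each), and the overlap was mutant 2, at 1.92, with control 4, at 1.79. Cox8b to Cox8a was thus the ratio whose mean lay lower in mutants in both atria by more than 1 SD. In the left atrium it was 1.25 and 1.41 in mutants 1 and 5, whose levels rose with GC content. In left mutants 2 to 4 it was 1.92, 1.36 and 1.78. Cox8a has 58.5% and Cox8b 55.8% GC, and left Cox8a read only 47.9 to 245 normalized counts. The part of GC content in these ratios was not tested. No p is given for these ratios, since the pairs were chosen with results known.

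In the left atrium the ratios of the other pairs spread widely. Cox6a2 to Cox6a1 ranged from 0.75 to 1.80 in mutants and from -0.28 to 2.27 in controls, and Cox7a1 to Cox7a2 from -1.01 to -0.29 in mutants and from -1.22 to -0.22 in controls. Cox4i2 was far below Cox4i1 in every library, with mean log2 ratios of -8.26 ± 0.46 in mutant and -8.39 ± 0.37 in control right atria (SD, n = 5 each). In the left atrium that ratio rests on Cox4i2 counts of 0 to 7.21.

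**Figure D5:**
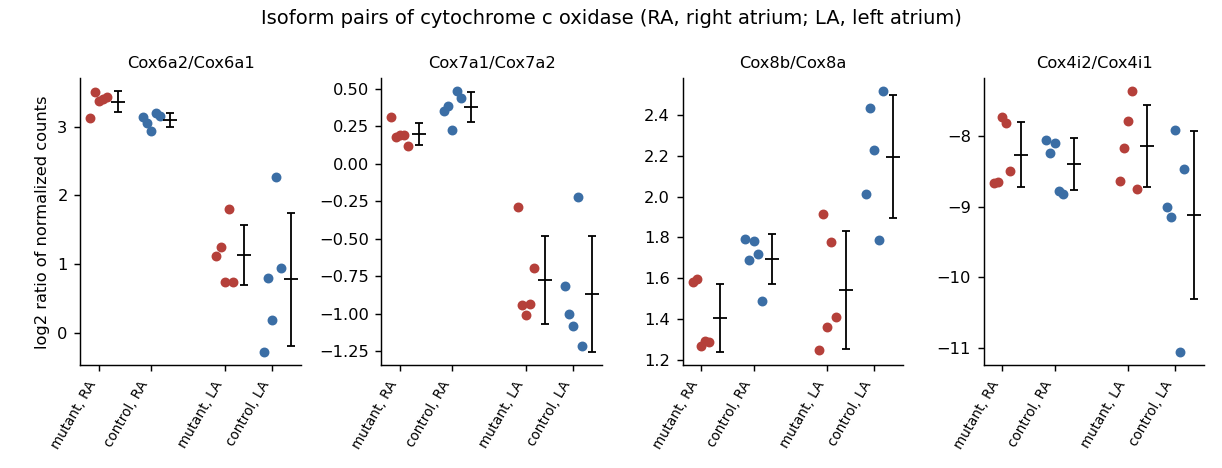
Log2 ratio of normalized counts within each library for 4 isoform pairs of cytochrome c oxidase, in mutants (red) and controls (blue) of each atrium, with the mean and SD of each group of 5. In the right atrium the mutant mean lies above the control mean for Cox6a2/Cox6a1 (3.36 and 3.10) and below it for Cox8b/Cox8a (1.40 and 1.70).

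Genes that work with the chain were read from 5 lists. The 6 tested genes of complex II, which oxidizes succinate, were negative in the right atrium with a median log2 fold change of -0.18, and none was called. Of these, the flavoprotein Sdha and the iron-sulfur protein Sdhb averaged 19053 ± 1197 and 8269 ± 447 normalized counts in mutants, against 20907 ± 1991 and 9299 ± 1346 in controls (SD, n = 5 each). All 20 genes of cytochrome c, coenzyme Q synthesis and the carriers were negative with a median of -0.11, and the ADP/ATP carrier Slc25a4 had a log2 fold change of -0.13 ± 0.13 (SE). Of 75 mitochondrial ribosome genes 67 were negative with a median of -0.11 and none was called. Right controls 4 and 5 again stood highest: the median deviation of the mitochondrial ribosome genes was -0.16 to -0.01 in mutants and -0.09 to 0.25 in controls.

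Of the 146 genes of these lists tested in the right atrium 3 were called, each higher in mutants. This was 2.05% of them, below the 6.23% of all genes. Cox19, a copper-related assembly factor of complex IV, read 1723, 1799, 1695, 1803 and 1809 normalized counts in mutants, against 1216, 1154, 1305, 1483 and 1518 in controls. Every mutant lay above every control, and the log2 fold change was 0.41 ± 0.08 (SE, n = 5 each; adjusted p = 0.0065 by limma). With each of the 10 libraries left out in turn it stayed called, at adjusted p-values of 0.00205 to 0.0213. Atpaf2, which assembles the catalytic head of ATP synthase, read 770, 802, 806, 826 and 782 in mutants, against 543, 485, 601, 701 and 742 in controls. Its groups did not overlap either, and the log2 fold change was 0.39 ± 0.10 (SE, n = 5 each; adjusted p = 0.0413 by limma). The call was lost without any single mutant and without control 1, 2 or 3, with adjusted p-values of 0.00973 to 0.0935 over the 10 fits.

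The third was Ppargc1b, a coactivator of mitochondrial gene expression, with 566 ± 52.5 in mutants and 441 ± 38.1 in controls (SD, n = 5 each). Its log2 fold change was 0.36 ± 0.08 (SE, n = 5 each; adjusted p = 0.0244 by limma), and mutant 1 overlapped control 4. The call was lost without mutant 2, 4 or 5, with adjusted p-values of 0.00924 to 0.0685 over the 10 fits. None of the 3 genes was called with all 4 groups in a single model, at adjusted p-values of 0.283 for Cox19, 0.519 for Atpaf2 and 0.534 for Ppargc1b. Each was called in 13 of 13 other alternatives that kept every library, not counting the fit scaled to the mitochondrial mRNA sum. The 2 assembly factors were 2 of 22 tested on that list, which had 9 positive and 13 negative values and a median of -0.02, beside a median of -0.01 over all genes. In the left atrium 0 genes of these 5 lists were called, and the medians ran from -0.03 for complex II to 0.15 for the mitochondrial ribosome.

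The promoters of the nuclear members were searched for 4 motifs, which the name rule did not use. RefSeq promoter windows (GRCm38.p6, 250 bases before to 50 after the start) were found for 68 of the 88 genes, 73 windows in all. The core motif of NRF1, searched on both strands, was present in 23.3% of them, against 4.60% of all 32851 windows, and the GABPA motif CCGGAAG in 20.5%, against 8.86%. The ERR motif TCAAGGTCA was in 1 of the 73 windows (1.37%), too few to compare with the 0.423% of all windows. The T-box motif AGGTGTGA was found in 0 of the 73 windows, against 1.28% of all windows. At so low a share, 73 windows are too few to tell 0 from the rate of all windows. A match describes the letters of the window only.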

How the data were processed

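RNA from left and right atria (300 ng a library, TruSeq RNA v2) was sequenced by the authors, aligned to mm10 with STAR and normalized with DESeq2. The gene counter and versions are not given in the sources used here. The deposited signal values are read counts that the authors divided by a DESeq2 size factor for each library, in a separate table for each atrium. Whole reads were recovered from them for 100% of values (tolerance 0.01), though in left mutant 3 the value of 1 read, 0.9957, is close to 1, where this check has little power. Columns of the authors' own comparisons (base means, fold changes and p-values) were not used, and 0 per-sample columns were left unmapped. Entries of the right atrial file without values (6275) and with repeated gene IDs (1203) were removed.

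Genes with a mean of at least 10 were tested with limma 3.58.1 (mean-variance trend, R 4.3.3) on log2(normalized count + 1), 5 mutants against 5 controls in each atrium, and as the difference between atria over 20 libraries. P-values were adjusted by Benjamini-Hochberg over all tested genes. The fit was tested on simulated data. Library properties were compared by exact two-sided permutation tests, whose smallest p is 0.00794.

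Alternatives were edgeR 4.0.16 and DESeq2 1.42.0 on recovered reads, other pseudocounts, filters and scalings, robust variance, removal of GC or length trends, a single model, a replicate block, and leaving out each library. Positions, exonic length, GC content (of the longest transcript) and coding sequences were from GENCODE M21 (GRCm38), and copies were sought with blastn 2.17.0 (at least 98% identity). Promoters were from RefSeq.

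The members and lists were chosen with earlier results of these data known. By rule, the text names called members, the 13 mitochondrial mRNAs, 4 isoform pairs, the 2 nuclear members of highest right atrial mean in each complex and among assembly factors, members that failed the filter, and up to 4 called genes, or the 2 of highest mean, of each related list. Some listed genes are not reported here. Ndufs7, Uqcrfs1, Atp5f1, Atp5sl, Ndufb4, Atp5d and Ndufa11 were named after their values were seen.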

Additional observations from a re-analysis of the deposited data

Results flagged for a closer look

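Of 148 groups of 5 libraries examined, 8 had a highest or lowest library standing apart from the other 4, and chance gives about 1 in 20 groups. In control left atria, control 4 stood alone at the top with 80453 normalized counts of mt-Nd2 (next 43190), 33.7 of mt-Atp6 (next 15.7), 809 of Cox6a2 (next 345) and 349 of Ndufs7 (next 180). The ratio of mitochondrial to nuclear respiratory chain mRNA was also highest there, at 7.96 (next 5.28). Control 4 had 53.9% of its reads on the mitochondrial genome and 17019 genes with a read, the fewest of the 20 libraries. Control 5 of the left atrium stood apart with 47221 normalized counts of Atp5a1 (next 36083) and 14217 of Uqcrc2 (next 10791). In mutant right atria, mutant 3 had the lowest Cox7a2, at 5617 normalized counts (next 6150).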

How the results depend on the processing

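Right atrial members called numbered 1 with a mean of at least 50 (Atp5sl), 1 after quantile normalization and 1 with nuclear reads only (mt-Nd2 in both), 1 with robust variance (Atp5sl), 2 with the GC trend removed (Ndufs7, Cox6a1), 1 with the length trend removed (Cox6a1), 5 by DESeq2, and 0 to 2 with a library left out. Scaled to the mitochondrial mRNA sum, which was planned for mitochondrial genes alone, 2 members (Ndufs7, Ndufa6) were called among 461 right and 0 among 47 left atrial genes, and nuclear medians were -0.18 and 0.41 beside -0.07 and 0.20 over all genes. In the fits that called members, 3.23% to 9.18% of all genes were called. Calls appeared without mutant 2 (Atp5sl), without control 1 (Cox6a1, Ndufaf4) and without control 2 (Atp5sl). With all 4 groups in a single model, 267 genes were called in the right and 1235 in the left atrium. That model shares each gene's variance between atria, while the median standard error over all genes was 0.108 in the separate right and 0.226 in the separate left fit. DESeq2 called 431 left atrial genes, leaving out mutants 1 and 5 gave 77, and leaving out single libraries gave 71 to 370. For the difference between atria, 3 genes were called with nuclear reads only, 2 without left mutants 1 and 5, and 0 to 11 with a library left out. The cause of these changes was not tested.

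Same-numbered mutants and controls correlated at -0.03 to 0.32 in the right and 0.06 to 0.34 in the left atrium. Right mutants 1, 3 and 5 and left mutants 1, 2 and 5 correlated best with the control of their own number, and the others did not. With a mean of at least 50 the ranges were -0.00152 to 0.439 and 0.099 to 0.395, and left mutant 4 also matched best. The labels do not say what a shared number means, so the main fits took no pairs. These correlations are descriptions, and whether numbers mark shared origin was not tested. Left and right libraries of the same genotype and number correlated at 0.27 to 0.40 in controls and -0.07 to 0.20 in mutants, and were fitted as independent for the difference. With a mean of at least 50 the ranges were 0.34 to 0.53 and -0.09 to 0.27. Left controls 1, 2, 3 and 5 and left mutants 3, 4 and 5 then correlated best with the right library of their own number. With the replicate block, 885 genes and 1 member (Ndufs7) were called in the right atrium, 693 genes and 2 members (Ndufb4, Ndufaf4) in the left, and 2 genes for the difference.

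Without left mutants 1 and 5, chosen after seeing the data, the nuclear median was -0.0871 in the left atrium and 0.0221 for the difference. Left atrial log2 fold changes then changed sign for Atp5b (-0.0721), Cox4i1 (-0.0254), Cox7a1 (-0.2478), Uqcc (-0.0132), Uqcrc1 (-0.088), mt-Nd5 (0.0486) and mt-Nd6 (0.129), and differences between atria for Cox6a1 (-0.0923), Cox7a1 (-0.06) and Cox8b (-0.0779). Left mt-Nd5 was 0.0011 after quantile normalization and 0.0387 with the GC trend removed, where the difference for Cox8b was -0.0043. With nuclear reads only, the left median of all genes moved to 0.12 and that of nuclear members to 0.33. Of 2255 values of single respiratory chain genes under alternatives, 152 had the opposite sign, 139 of them where the value reported lay under 1 SE from 0.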
